A study of Mus musculus with 12 samples.

Results

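The keratins of the bladder lining, with the basal layer factor Trp63, were followed over the circadian day in 9 genes: Krt5, Krt14, Krt15, Krt17, Trp63, Krt7, Krt8, Krt18 and Krt19. The probes were all those, control spots aside, that carry one of these 9 names in the array files, 13 of 41174 probes in all. Total RNA of whole urinary bladders was measured on 12 Agilent 1-colour arrays; the mice were C57BL/6 females aged 10 weeks. After 2 weeks on a cycle of 12 h light and 12 h dark the animals were moved to constant darkness, a setting that all groups share, and were taken at 6 circadian times (CT), 0, 4, 8, 12, 16 and 20 h; each time has 2 arrays. CT0 to CT12 is the subjective day, when mice mostly rest, and the subjective night follows. The labels do not say that the 2 arrays of a time came from separate mice, so p-values measure the spread between these arrays, which may be technical.

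Keratins form the intermediate filaments of epithelial cells, and each filament is built from pairs of 1 type I and 1 type II protein. Krt5, Krt7 and Krt8 are type II, and Krt14, Krt15, Krt17, Krt18 and Krt19 are type I. In the urothelium, the layered lining of the bladder, Krt5 marks basal and intermediate cells, Krt14 a smaller share of basal cells, and Krt8 with Krt18 is strongest in the umbrella cells that face the urine. Krt7 and Krt19 occur in all layers, Krt17 belongs to basal and wound-activated epithelium, and Krt15 is a keratin of basal cells in stratified epithelia. Trp63 encodes p63, a relative of p53 that basal layers need to form and that switches on Krt5 and Krt14 in mouse epidermis.

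Each array lists 43379 spots other than controls, of which 64.2% to 70.2% were well above background, and none was saturated. Levels are given as log2 of the processed signal minus the 75th percentile of the same array, so that 0 is that percentile; this percentile lay between 844 and 984 intensity units. The number of arrays limits the precision, and levels of different probes are not comparable with each other. Over the tested probes, arrays of the same time had r = 0.985 to 0.993 with each other; probes are not independent replicates. Neighbouring times shared a slide: CT0 and CT4 slide 1, CT8 and CT12 slide 2, CT16 and CT20 slide 3. The core clock genes Arntl, Nr1d1, Per2 and Dbp, used as a check, all passed the 24 h test (limma adjusted p of 0.00258, 1.34e-05, 0.00083 and 2.54e-05). All 5 umbrella cell markers and all 6 general epithelium markers, Upk2 and Cdh1 among them, were well above background on all 12 arrays, and so were all 7 smooth muscle markers.

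Of the 13 probes, 12 were well above background on all 12 arrays and were tested. The exception was 1 of 3 Trp63 probes, above background on 3 arrays. The array files give positions on mm7, a build for which no annotation was used here, so exon and UTR are not given. The type II genes and Krt18 lie on chromosome 15: Krt5 (probe at 101693240 to 101693299, minus strand), Krt7 (101413898 to 101413957 and 101409444 to 101409503, plus strand), Krt8 (101983072 to 101983131 and 101982940 to 101982999, minus strand) and Krt18 (102018067 to 102018126, plus strand). The other type I genes lie on the minus strand of chromosome 11: Krt14 (100312408 to 100313013, a span of 606 bases), Krt15 (100241065 to 100241124), Krt17 (100365309 to 100365368) and Krt19 (100250117 to 100250176). The Trp63 probes lie on the plus strand of chromosome 16, at 25553466 to 25553525, at 25526842 to 25527619 and, for the dim probe, at 25529172 to 25529231. Where a gene had several probes, the one of highest mean level is given first and called its first probe.

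No member passed a test for change over the day. The 24 h test, which fits a cosine and a sine wave to the 12 arrays in limma, called 0 of 12 member probes at a Benjamini-Hochberg adjusted p of 0.05, where it called 0.848% of the 27706 probes tested (235 probes). The F-test for any difference between the 6 times called 0 of 12, against 0.0938% of all probes (26 probes). At an unadjusted p of 0.05, 1 of 12 member probes passed the 24 h test, where 16.5% of all probes did, and 1 of 12 passed the test for any difference, where 19.3% did. Whole bladder RNA was measured, so fewer cells of a type and less RNA per cell cannot be told apart in any value here.

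Krt5, the basal type II keratin, had its lowest mean at CT12. Its levels were 6.44 and 6.67 at CT0, 6.41 and 6.95 at CT4, 6.67 and 6.83 at CT8, 6.24 and 6.42 at CT12, 6.56 and 6.84 at CT16, and 6.79 and 6.88 at CT20. Both CT12 arrays lay below both CT8 arrays, while the CT12 and CT4 arrays overlapped. The fitted 24 h wave had an amplitude of 0.09 ± 0.09 (log2, SE, 12 arrays) with a limma adjusted p of 0.804. The means ran, from high to low, CT20, CT8, CT16, CT4, CT0, CT12, and of these neighbours only CT0 and CT12 did not overlap.

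Trp63, whose protein acts on Krt5, had a similar course. The first probe read 3.31 and 3.58 at CT0, 3.27 and 3.59 at CT4, 3.44 and 3.75 at CT8, 3.05 and 3.28 at CT12, 3.47 and 4.00 at CT16, and 3.60 and 3.86 at CT20. The means were highest at CT16 (3.74) and CT20 (3.73) and lowest at CT12 (3.17), and no neighbours in that order were free of overlap. The amplitude was 0.15 ± 0.10 (SE) with a peak at CT19.8 and an adjusted p of 0.674. The second Trp63 probe, at 20.9 to 46.1 intensity units, had its lowest mean at CT0 and an amplitude of 0.01 ± 0.14. The dim Trp63 probe had 2.57 to 19.4 intensity units and its lowest mean at CT12.

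Krt7, a type II keratin of all urothelial layers, had its lowest mean at CT12 and its highest at CT20 with both probes. The first probe read 8.15 and 8.22 at CT0, 8.10 and 8.19 at CT4, 8.19 and 8.27 at CT8, 7.85 and 8.09 at CT12, 8.11 and 8.32 at CT16, and 8.36 and 8.35 at CT20. Its 2 arrays at CT20 lay above both CT8 arrays, and its 2 arrays at CT12 lay below all arrays of CT0, CT4 and CT8. The second Krt7 probe had 5.22 and 5.53 at CT12, where both were below the 5.80 and 5.82 at CT8. Its CT16 arrays, at 5.37 and 5.61, overlapped those of CT12. This probe was the 1 member of 12 with an unadjusted p under 0.05 in the test for any difference, and its limma adjusted p there was 0.218. The 2 probes correlated at r = 0.78 over the 12 arrays, and the amplitudes were 0.10 ± 0.06 and 0.11 ± 0.08 (SE).

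Krt8 and Krt18, the pair of the umbrella cells, also had their lowest means at CT12. Krt8 read 7.22 and 7.27 at CT0, 7.29 and 7.44 at CT4, 7.19 and 7.37 at CT8, 6.78 and 7.16 at CT12, 7.01 and 7.29 at CT16, and 7.39 and 7.46 at CT20. Krt18 read 8.20 and 8.28 at CT0, 8.20 and 8.23 at CT4, 8.19 and 8.21 at CT8, 7.96 and 8.18 at CT12, 8.15 and 8.36 at CT16, and 8.34 and 8.36 at CT20. For both genes the first CT12 array was the lowest of the 12 and the second CT12 array lay above the first CT16 array. The 24 h amplitudes were 0.15 ± 0.07 for Krt8, 0.16 ± 0.07 for its second probe and 0.09 ± 0.04 for Krt18 (SE), with adjusted p of 0.427, 0.385 and 0.465. The 2 Krt8 probes correlated at r = 0.98.

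Krt19, a small type I keratin of simple epithelium, had the narrowest range of the 9 first probes after Krt18 and Krt7. It read 6.37 and 6.30 at CT0, 6.35 and 6.55 at CT4, 6.27 and 6.47 at CT8, 6.02 and 6.31 at CT12, 6.16 and 6.35 at CT16, and 6.33 and 6.41 at CT20. All neighbouring times overlapped in the order of its means, and its highest array was 1.44-fold above its lowest. The amplitude was 0.10 ± 0.05 (SE), with a peak at CT2.2 and an adjusted p of 0.498.

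**Figure D1:**
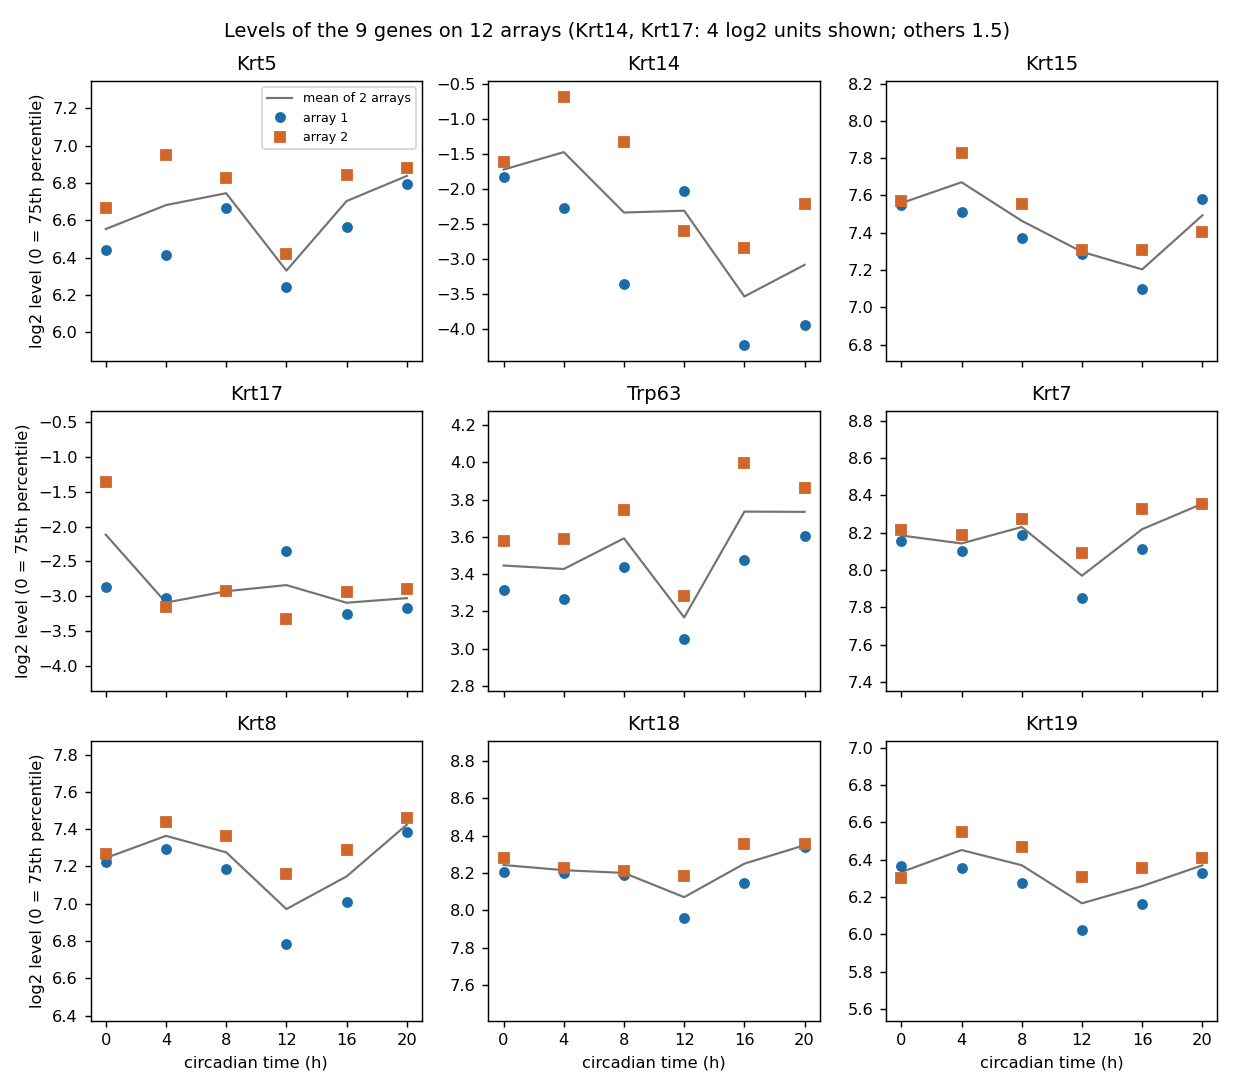
Log2 level (0 is the 75th percentile of the array) against circadian time in hours for the first probe of each of the 9 genes, with circles for the first array, squares for the second array and a line through the mean of both. Krt5, Trp63, Krt7, Krt8, Krt18 and Krt19 dip at CT12; Krt14 spreads from -4.23 to -0.68, and Krt17 has 1 high array at CT0.

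Krt15 came nearest to a 24 h wave. This basal type I keratin read 7.55 and 7.57 at CT0, 7.51 and 7.83 at CT4, 7.37 and 7.56 at CT8, 7.29 and 7.31 at CT12, 7.10 and 7.31 at CT16, and 7.58 and 7.41 at CT20. Its means were 7.67 at CT4, 7.46 at CT8, 7.30 at CT12, 7.20 at CT16 and 7.49 at CT20, and both CT16 arrays lay below both CT4 arrays. The fitted peak was at CT2.4 ± 0.9 h (SE), 1.34-fold above the trough (1.25 to 1.44 at the amplitude minus and plus 1 SE), with an amplitude of 0.21 ± 0.05. The unadjusted p was 0.00664 and the limma adjusted p 0.140; over all alternatives the adjusted p ran from 0.0838 to 0.465.

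Krt14, the type I partner of Krt5, had the largest fitted amplitude of the 9 genes and the largest spread between arrays of 1 time. It read -1.82 and -1.62 at CT0, -2.26 and -0.68 at CT4, -3.35 and -1.32 at CT8, -2.02 and -2.60 at CT12, -4.23 and -2.84 at CT16, and -3.95 and -2.22 at CT20. In processed signal this is 44.1 to 542 intensity units, so that the highest array was 11.7-fold above the lowest, whereas the Krt5 range was 1.63-fold. The 2 Krt14 arrays of CT8, at -3.35 and -1.32, lay almost as far apart as the extreme time means. Those means were -1.47 at CT4 and -3.53 at CT16, a span of 2.06, and the SD of the 2 CT8 arrays was 1.44. The wave had an amplitude of 0.91 ± 0.33 (SE) with a peak at CT4.2 ± 1.4 h and an adjusted p of 0.310. With slide as a fixed block, which leaves differences within slides only, the amplitude was 0.25 ± 0.68; time and slide cannot be told apart for the rest of it.

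Krt17, a keratin of activated epithelium, differed on 1 array. It read -2.86 and -1.37 at CT0, -3.03 and -3.15 at CT4, -2.92 and -2.93 at CT8, -2.35 and -3.33 at CT12, -3.25 and -2.93 at CT16, and -3.16 and -2.89 at CT20. The second CT0 array stood at -1.37, 2.96-fold above the median of the other 11 arrays, which ran from -3.33 to -2.35. The wave amplitude of 0.23 ± 0.21 (SE) had an adjusted p of 0.772.

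**Figure D2:**
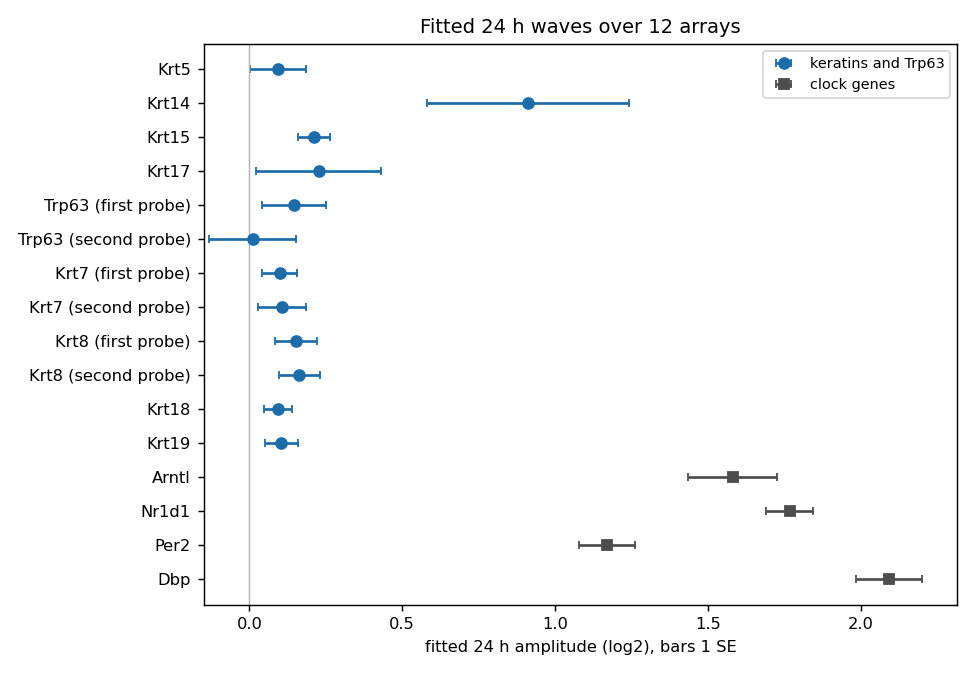
Fitted 24 h amplitude (log2, bars 1 SE, 12 arrays) for the 12 tested probes of the keratins and Trp63 (circles) and for 4 clock genes (squares). The clock genes lie between 1.17 and 2.09; the members lie between 0.01 and 0.91, with Krt14 the one above 0.23.

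The amplitudes of the 12 member probes had a median of 0.13, as did those of all 27706 probes (0.13). With slide as a fixed block the amplitudes were larger in 11 of 12 member probes, Krt14 being the exception, and in 80.3% of all probes, with medians of 0.30 and 0.23. The SE were larger under that block too, at 0.15 against 0.09 for Krt5 and 0.18 against 0.10 for the first Trp63 probe. An amplitude cannot lie below 0, so a less precise fit tends to give a larger one, and these increases do not show larger waves. Under that block the amplitude was 0.47 ± 0.10 (SE) for the second Krt7 probe, with an unadjusted p of 0.00313 and a limma adjusted p of 0.203. It was 0.36 ± 0.15 for Krt5, with a peak at CT4.0 against CT22.6 without the block, 0.35 ± 0.12 and 0.33 ± 0.12 for the Krt8 probes, and 0.23 ± 0.09 for the first Krt7 probe. None of the 12 was called under it, and 2 of 12 had an unadjusted p under 0.05, against 13.8% of all probes. The median SD between the 2 arrays of a time was 0.15 for the members and 0.16 for all probes. The lowest time mean was that of CT12 in 8 of 12 tested probes, where 20.3% of all probes had theirs at CT12, and the first CT12 array was the lowest of the 12 in 9 of 12, where 10.9% of all probes were. In the order of means, 8 of 60 neighbouring pairs of times were free of overlap over the 12 tested probes (13.3%), against 19% over all tested probes. Neighbours in an order set by the means themselves lie close together by construction.

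Neighbouring times on the same slide were compared first, since these differences hold no slide effect. At CT12, subjective dusk, against CT8, 10 of 12 member probes had a difference below 0, where 50.4% of all probes did, and the median difference was -0.27 (all probes -0.00245). In 8 of 12 probes both CT12 arrays lay below both CT8 arrays, against 23.7% of all probes; these were Krt5, Krt15, Krt18, both Krt7 probes, both Krt8 probes and the first Trp63 probe. Members share RNA samples and move together, so these probes are not independent of each other. No member was called and no other tested probe was (0% of 27706), and 2 of 12 members had an unadjusted p under 0.05, where 13.7% of all probes had. The opposite order, both CT12 arrays above both CT8 arrays, held for 0 of 12, against 20.4%.

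The second Krt7 probe averaged 5.38 ± 0.22 at CT12 and 5.81 ± 0.02 at CT8 (SD, n = 2 each), a difference of -0.43 ± 0.12 (SE) with a limma adjusted p of 0.264. Krt5 averaged 6.33 ± 0.12 at CT12 and 6.75 ± 0.11 at CT8 (SD, n = 2 each), a difference of -0.42 with a 95% interval of -0.85 to 0.02 and an adjusted p of 0.384 in limma. Trp63 averaged 3.17 ± 0.16 at CT12 and 3.59 ± 0.22 at CT8 (SD, n = 2 each), a difference of -0.42 with an interval of -0.92 to 0.07 and an adjusted p of 0.431 in limma. As a ratio, CT12 over CT8 was 0.741 for that Krt7 probe, 0.75 for Krt5 and 0.745 for Trp63. Krt14 and Krt17 were the 2 probes above 0, at 0.03 (95% interval -1.99 to 2.04) and 0.09 (-1.0 to 1.17). Without the first CT12 array all 12 differences lay below 0 and the median was -0.15; without the second CT12 array 10 of 12 did and the median was -0.41.

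At CT20 against CT16, 1 of 12 differences was below 0, where 50.9% of all probes had one, and the median was 0.16. Both CT20 arrays lay above both CT16 arrays in 5 of 12 probes, against 25.9% of all probes: Krt15, both Krt7 probes and both Krt8 probes. None lay below without overlap, against 26.9%. The second Krt7 probe averaged 5.84 ± 0.06 at CT20 and 5.49 ± 0.17 at CT16 (SD, n = 2 each), a difference of 0.35 ± 0.12 (SE) with a limma adjusted p of 0.280. Krt15 averaged 7.49 ± 0.12 at CT20 and 7.20 ± 0.15 at CT16 (SD, n = 2 each), a difference of 0.29 with an interval of -0.02 to 0.60 and an adjusted p of 0.379 in limma. No member and no other tested probe was called (0% of 27706). This direction rests in part on the first CT16 array: without it 5 of 12 differences lay below 0 and the median was 0.01.

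At CT4 against CT0, 4 of 12 differences lay below 0, against 49.5% of all probes, with a median of 0.12. Without the second CT4 array 8 of 12 lay below 0 and the median was -0.04. The Krt17 probe alone was lower at CT4 without overlap, a direction that 20.1% of all probes took. The second Krt7 probe, one Krt8 probe and the second Trp63 probe were higher without overlap, 3 of 12 against 19.7%. Krt17 averaged -3.09 ± 0.09 at CT4 and -2.12 ± 1.06 at CT0 (SD, n = 2 each), a difference of -0.97 ± 0.47 (SE) with a limma adjusted p of 0.549. Without the second CT0 array the difference was -0.22. Again 0% of 27706 probes were called, and 0 of 12 members had an unadjusted p under 0.05, against 9.71%. Without the first CT0 array 307 of all probes were called, and none of the members.

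**Figure D3:**
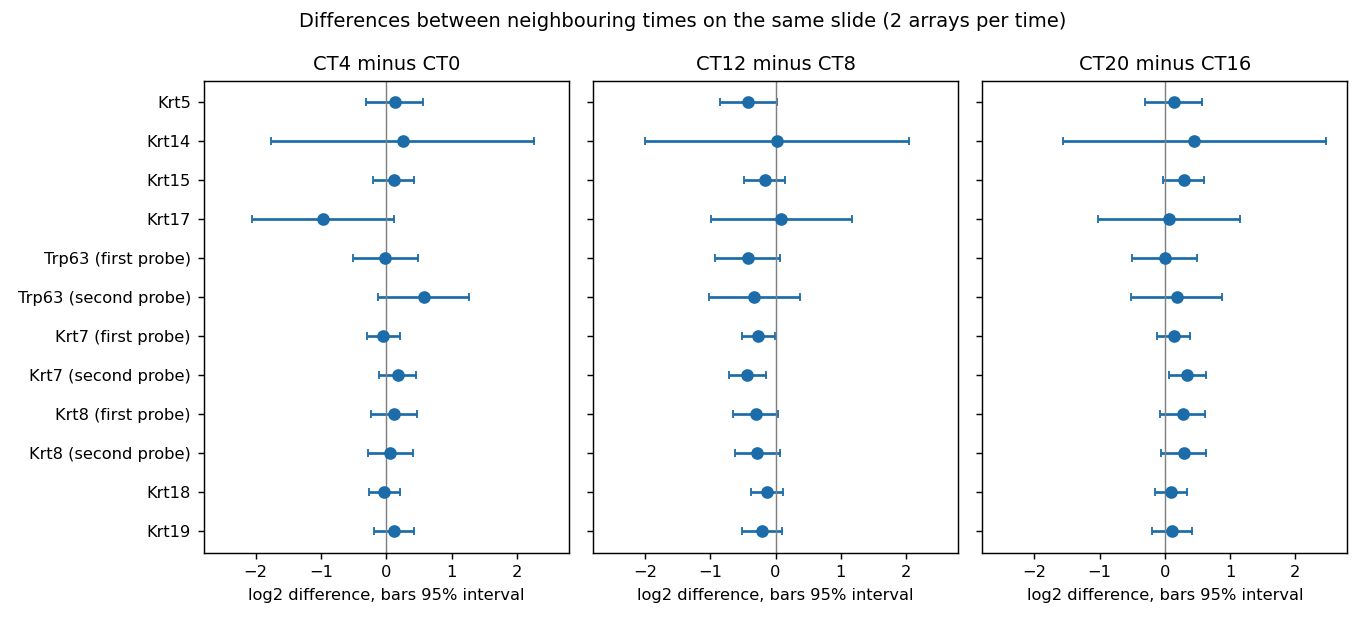
Log2 difference between neighbouring times on 1 slide (CT4 minus CT0, CT12 minus CT8, CT20 minus CT16) for the 12 tested probes, with 95% limma intervals and 2 arrays per time. Most points lie left of 0 for CT12 minus CT8 (10 of 12) and right of 0 for CT20 minus CT16 (11 of 12), and the Krt14 intervals are the widest.

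Times 12 h apart lay on different slides, so that slide and time cannot be told apart in them. At CT12 against CT0, 11 of 12 differences lay below 0, where 54.9% of all probes did, with a median of -0.24 (all probes -0.03). Without the first CT12 array 10 of 12 did and the median was -0.11. In 8 of 12 probes both CT12 arrays were below both CT0 arrays, against 22.8% of all probes, and no member was called, against 0.152% of all probes. No probe was higher without overlap, against 17.5%, and none had an unadjusted p under 0.05, against 9.9%. Krt15 was the most even of them, with 7.30 ± 0.02 at CT12 and 7.56 ± 0.01 at CT0 (SD, n = 2 each), a difference of -0.26 and a limma adjusted p of 0.552. This comparison shares the CT12 arrays with that of CT12 and CT8, so the 2 are not independent.

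At CT16 against CT4, 0 of 12 members were called, where 1.26% of all probes were, and 2 of 12 had an unadjusted p under 0.05, where 22.1% of all probes had. These 2 were Krt15 and Krt14. Krt15 averaged 7.20 ± 0.15 at CT16 and 7.67 ± 0.23 at CT4 (SD, n = 2 each), a difference of -0.47 ± 0.13 (SE), or a ratio of 0.723, with a limma adjusted p of 0.105. Krt14 averaged -3.53 ± 0.98 at CT16 and -1.47 ± 1.12 at CT4 (SD, n = 2 each), a difference of -2.06 with an interval of -4.08 to -0.04 and an adjusted p of 0.218 in limma. Both CT16 arrays lay below both CT4 arrays in 5 of 12 probes, against 28.9% of all probes, and in none above them, against 28.4%. Differences lay below 0 in 8 of 12 probes, where 50.3% of all probes had one, with a median of -0.15. Without the first CT16 array 6 of 12 did and the median was 0.00529, and without the second 11 of 12 did and it was -0.29. Without the second CT4 array 7 of 12 did and the median was -0.07. At CT20 against CT8, 3 of 12 differences lay below 0, against 46.6% of all probes, with a median of 0.11. Without the first CT8 array 6 of 12 did and the median was 0.00107. With all arrays, 4 of 12 probes (Krt18, the first Krt7 probe and both Krt8 probes) were higher without overlap, against 24.4%, and 0 of 12 were called, against 0.0397%.

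For 9 or 10 of the 12 member probes, depending on the comparison, the 95% interval of the difference stayed within a 2-fold change either way. Krt14 and Krt17 crossed that bound in all 6 comparisons, and the second Trp63 probe did so at CT4 against CT0 and at CT12 against CT8.

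Krt14, Krt15 and Krt17 varied less closely with the other 6 genes than those did among themselves over all 12 arrays. Over the 12 arrays the first probes of Krt5, Trp63, Krt7, Krt8, Krt18 and Krt19 varied together, with Pearson's r between 0.57 and 0.95 (median 0.83) for their 15 pairs. The closest pair was Krt7 with Krt18 (r = 0.95), a type II and a type I keratin; Krt8 with Krt18 had r = 0.85 and Krt5 with Trp63 r = 0.89. Krt14 had r of -0.11 to 0.49 with these 6 genes, among them 0.13 with its partner Krt5, and Krt17 had -0.26 to -0.05. Krt15 lay between, with 0.14 to 0.74. These are descriptions over arrays that share RNA, scale and slide, with n = 12. The 6 genes were set apart with these values known, so their higher r is in part a product of that choice. Without the first CT12 array, the array lowest in all 6 genes, the 15 values ran from 0.27 to 0.89. Krt14 then had -0.04 to 0.81 with the 6 genes, Krt15 -0.002 to 0.80 and Krt17 -0.08 to 0.25. The ranges of Krt14 and Krt15 thus overlapped that of the 15 pairs widely once this 1 array was left out. After each time's mean was subtracted, the 15 values ran from 0.61 to 0.98. With the time means subtracted, Krt14 had 0.27 to 0.79 with the 6 genes (0.69 with Krt5). Krt15 then had 0.42 to 0.79 and Krt17 -0.39 to 0.25. With 2 arrays per time, all these within-time values rest on 6 differences between arrays. Krt5, Krt8, Krt18 and Trp63 were higher in the second array at 6 of 6 times, and Krt7, Krt14, Krt15 and Krt19 at 5. A direction shared in this way raises r, so the narrower gap of Krt14 and Krt15 within times cannot be told apart from it.

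**Figure D4:**
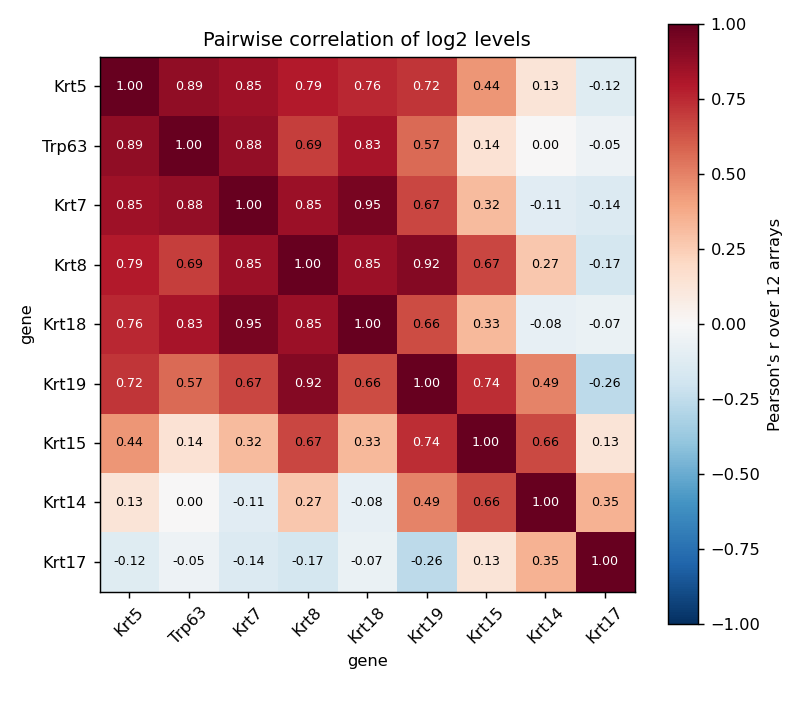
Pearson's r of log2 levels over 12 arrays between the first probes of the 9 genes, on a colour scale from -1 to 1 with the value in each cell. Krt5, Trp63, Krt7, Krt8, Krt18 and Krt19, placed together with these values known, have 0.57 to 0.95 with each other. Krt14 has 0.66 with Krt15 and 0.13 with Krt5.

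Krt5, Krt7, Krt8 and Krt18, which varied together, also had promoter windows from RefSeq (GRCm38.p6) that begin at the gene's annotated start; windows were found for 5 of the 9 genes, and that of Krt14 was not used because it lies inside the gene. Krt8 and Krt18 are neighbours on chromosome 15. The 250 bases before each start are shown 5′ to 3′ on the gene's strand to set the promoters of this group side by side, with matches to the nuclear receptor motif or a core promoter box, spelled out after them, in capitals.
Krt5 promoter, chr15:101712906-101713155, minus strand: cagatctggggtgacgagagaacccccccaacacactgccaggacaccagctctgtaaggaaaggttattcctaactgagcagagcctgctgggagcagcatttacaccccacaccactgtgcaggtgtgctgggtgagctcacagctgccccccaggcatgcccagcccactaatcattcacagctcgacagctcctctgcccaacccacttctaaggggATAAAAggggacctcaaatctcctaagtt
Krt7 promoter, chr15:101412153-101412402, plus strand: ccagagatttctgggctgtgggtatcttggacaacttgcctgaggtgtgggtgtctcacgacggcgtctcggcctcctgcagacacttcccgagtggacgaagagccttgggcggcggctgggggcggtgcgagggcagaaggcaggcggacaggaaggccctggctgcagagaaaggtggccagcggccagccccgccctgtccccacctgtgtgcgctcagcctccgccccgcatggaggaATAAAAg
Krt8 promoter, chr15:102004343-102004592, minus strand: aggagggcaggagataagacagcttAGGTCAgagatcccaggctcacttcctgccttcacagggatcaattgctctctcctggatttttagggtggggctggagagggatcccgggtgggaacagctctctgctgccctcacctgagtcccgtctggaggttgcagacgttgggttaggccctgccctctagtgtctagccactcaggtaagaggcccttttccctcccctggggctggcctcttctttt
Krt18 promoter, chr15:102027966-102028215, plus strand: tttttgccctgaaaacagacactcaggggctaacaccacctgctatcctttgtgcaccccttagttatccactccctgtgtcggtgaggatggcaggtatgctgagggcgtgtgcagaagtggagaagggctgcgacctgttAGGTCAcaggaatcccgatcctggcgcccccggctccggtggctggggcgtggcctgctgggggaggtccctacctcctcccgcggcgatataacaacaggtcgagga

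In windows of 300 bases, 250 before and 50 after the start, 7 motifs were searched, a choice made with these data known. AGGTCA, the core motif of ROR and REV-ERB nuclear receptors, was in all 4 windows on either strand, where 16.3% of 32851 RefSeq promoters of that length hold it. It began at -225 in Krt8 and -108 in Krt18, and after the start, at 16 in Krt7 and on the minus strand at 35 in Krt5. The variant core promoter box ATAAAA, searched on the gene's strand, began at -29 in Krt5 and at -7 in Krt7, where 11.1% of promoters hold it. The standard box TATAAA, searched likewise, began at -1 in Krt8, across the annotated start, where 8.32% of promoters hold it. The GC box GGGCGG, on both strands, occurred 4 times in Krt7 and in none of the other 3 (35.7%). The AP-2 motif GCCNNNGGC, on both strands, was in Krt18 once and in Krt7 at 2 places, of which 1 overlaps a GC box (16.6%). The E-box CACGTG (7.15%) and the D-box TTATGTAA (0.938%), both strands, were not found in these windows. A match is a stretch of letters, not a bound site, and none of the 4 genes passed the 24 h test.

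The genes most like each member were the 3 with the highest Pearson's r over the 12 arrays, out of 7444 named genes with an SD of at least 0.2 (log2). Trp63 was most like Mecom, a zinc finger transcription factor (r = 0.98), then Srebf2, the sterol regulator SREBP2 (0.95), and Sowahc (0.94). Krt5 was most like Gne, an enzyme of sialic acid synthesis (0.94), Tbc1d30 (0.94) and Myof (0.93). Krt7 and Krt18 both had Ppfibp2, a liprin, as the closest gene (0.96 and 0.94). Krt7 was followed by Pgap1 (0.96) and by Zfp750, a zinc finger factor of epidermal differentiation (0.95), and Krt18 by Entpd3 (0.92) and Bmp7 (0.91). Krt8 was closest to G6pdx (0.96), Mbtps2 (0.95, a dim probe at a mean level of -4.92) and Tmem170 (0.95). Krt19 was closest to Plekhg6 (0.93), Hid1 (0.92) and Fmo5 (0.91). The best of 7444 values is high by selection, and none of them was tested.

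Across the 12 arrays, Krt14 had a higher r with some genes of basal cell attachment than with Krt5. Its 3 most alike genes were 4931406H21Rik (r = 0.92), Col17a1, the transmembrane collagen of hemidesmosomes (0.92), and Pkp1, a desmosome plaque protein (0.91). Of these, 4931406H21Rik was dim, at a mean level of -5.27. Col17a1 read 1.56 and 1.02 at CT0, 1.14 and 1.98 at CT4, 0.68 and 2.02 at CT8, 1.38 and 1.06 at CT12, 0.56 and 0.94 at CT16, and 0.36 and 1.26 at CT20. As with Krt14, the second arrays of CT4 and CT8 were its highest and the first arrays of CT8, CT16 and CT20 were its 3 lowest. Among the other type II keratins, Krt4, a keratin of mucosal stratified epithelium, had r = 0.89 with Krt14, Krt75 0.79, Krt6a 0.73 and Krt1 0.73. Krt75 was well above background on 9 of the 12 arrays and Krt6a on 8, so their values include arrays near the floor. Krt2 and Krt79 each had r = -0.02 with Krt14. Dst, which ties keratin filaments to hemidesmosomes, had 0.80. The mean of the 14 tested basal adhesion genes had r = 0.91 with Krt14 (0.88 to 0.94 with each array left out), and 0.41 with Krt5. Its members were not alike in this: Perp had r = -0.12 with Krt14, Cd44 0.04 and Cd151 0.18.

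**Figure D5:**
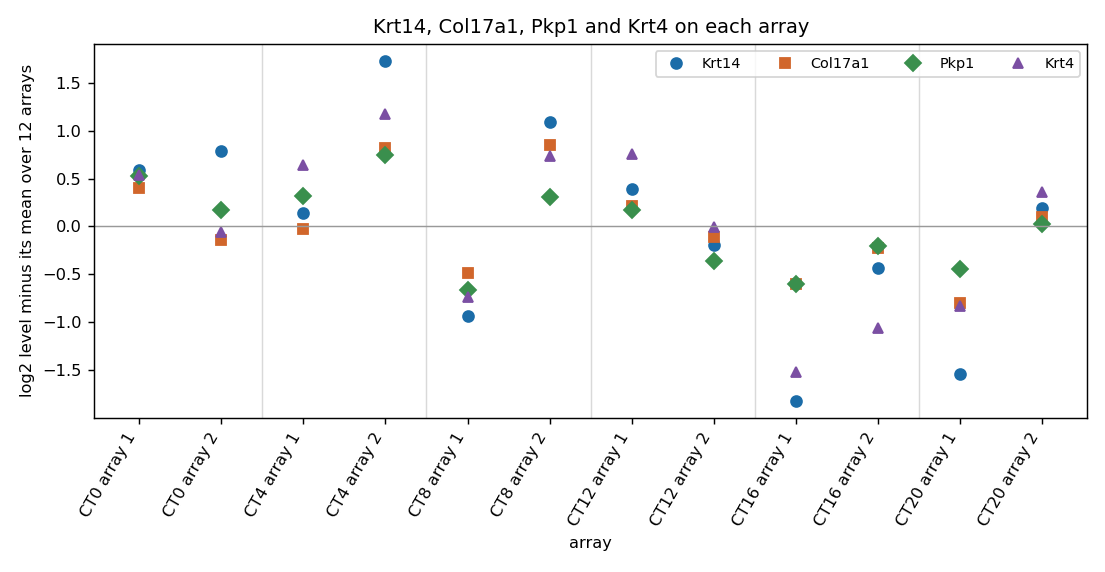
Log2 level minus its mean over 12 arrays for Krt14, Col17a1, Pkp1 and Krt4 on each array, grouped by circadian time. All 4 are high on the second CT4 and CT8 arrays and low on the first CT8, CT16 and CT20 arrays, and Krt14 has the widest range, 11.7-fold.

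Krt15 was most like Krtap16-3 (r = 0.96), Krt13 (0.91) and Myl7 (0.89). Krt13, a type I keratin of mucosal epithelium and of the intermediate layer of the urothelium, is the neighbour of Krt15 on chromosome 11. Krt13 ran from 1.84 to 2.91, with a 24 h amplitude of 0.25 ± 0.09 (SE), a peak at CT3.1 against CT2.4 for Krt15, and a limma adjusted p of 0.318. Krt19, the neighbour of Krt15 on the other side, had r = 0.74 with it.

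Krt17 was most like Cacna1h (r = 0.97), Cit (0.96) and Actn1 (0.95), and had r = 0.87 with the mean of 7 smooth muscle markers. The second CT0 array, the high one for Krt17, was also the highest of the 12 in that smooth muscle mean, at 7.49 against 6.84 to 7.25 on the other 11. It was the lowest in the mean of 6 adipocyte markers, at 1.51 against 2.65 to 5.14. It was also the highest in the mean of 3 female reproductive tract genes, at -1.79 against -2.42 to -1.92. Of these, Ovgp1 and Foxj1 were dim, at mean levels of -4.04 and -5.35, and Wnt7a and Pax8 of that list were not tested. The same array was second lowest in the umbrella cell mean, at 5.39. Krt17 had r = 0.51 with the reproductive tract mean and -0.59 with the umbrella cell mean. Without that array the smooth muscle value was r = 0.61. The part of any of these tissues in the Krt17 value was not tested.

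The array that was lowest for most keratins stood apart in other markers too. The first CT12 array had the lowest mean of the 5 umbrella cell markers, at 5.23 against 5.39 to 6.07 on the other arrays, and of the 6 general epithelium markers, at 1.04 against 1.14 to 1.59. It had the highest mean of the 6 fibroblast markers, at 6.39 against 5.83 to 6.34. With the general epithelium mean, r over the 12 arrays was 0.92 for Krt5, 0.90 for Trp63, 0.82 for Krt7, 0.79 for Krt8 and 0.75 for both Krt18 and Krt19, against 0.24 for Krt14 and -0.20 for Krt17. Within times Krt14 had 0.88 with that mean, beside 0.87 for Krt5 and 0.57 for Krt18. The general epithelium mean was higher in the second array at most times, as Krt14 was at 5 times and Krt5 and Krt18 at 6. A direction shared in this way raises r, and its part in these within-time values was not tested. They therefore do not show that Krt14 follows the general epithelium mean. With the fibroblast mean, r was -0.67 for Krt19, -0.61 for Trp63 and -0.59 for Krt5. At CT12 against CT8 the median difference was -0.36 for the umbrella cell genes and -0.18 for the general epithelium genes, beside -0.27 for the members, and 0.14 for the fibroblast genes. Some markers of other tissues differed more in that comparison, with medians of -1.01 for the 5 mesothelium genes, 0.94 for the 6 adipocyte genes and 0.43 for the hepatocyte genes. Others differed less: 0.15 for smooth muscle, -0.09 for leukocyte, -0.15 for female reproductive tract and 0.02 for cornified epithelium genes. Within the mesothelium list Upk3b differed least, at -0.21. The part of these tissues and of the share of lining in the differences was not tested.

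Beyond the 9 genes, 15 lists of related genes and of markers of other cell types were counted, with 96 of their 111 genes tested, and no gene in them passed the 24 h test, the test for any difference or a comparison of times. Among 6 tested type I keratins the smallest 24 h p belonged to Krt10 (amplitude 0.11, adjusted p = 0.232 in limma) and Krt13, and among 9 type II keratins to Krt80 (0.30, 0.199) and Krt4 (0.76, 0.293). Of 14 basal adhesion genes these were Plec, a linker of keratin to hemidesmosomes (0.39, with a peak at CT4.0 and adjusted p = 0.109), and Cd44 (0.17, 0.233). Of 9 genes of the p63 family and its epidermal targets, they were Trp53 (0.48, 0.132) and Perp (0.11, 0.393), and of 10 keratin filament partners Plec and Dnajb6 (0.17, 0.307). Among markers of other cells the smallest belonged to the mesothelium genes Lrrn4 (0.73, 0.156) and Wt1 (0.51, 0.251) and the smooth muscle gene Smtn (0.45, 0.180). The lists of cornified epithelium, female reproductive tract, hepatocyte, leukocyte, adipocyte, umbrella cell, general epithelium and fibroblast genes had no adjusted p below 0.232. Median amplitudes were 0.22 for the type I and 0.30 for the type II keratins, beside 0.13 for all probes.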

How the data were processed

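Total RNA of 12 bladder samples was labelled with Cy3 and hybridised to 1-colour arrays, per the labels' protocols. Spot intensity in the deposited scanner files comes from Agilent Feature Extraction 10.5.1.1, per the file headers. The authors' value table holds log2 values of 27883 probes, 12 of the 13 members among them; the submitters' processing notes name R 2.8.1 and no normalization, and the table served as an alternative only. Promoters came from RefSeq tables of GRCm38.p6.

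Log2 processed signals were scaled by the 75th percentile over 40903 probes with a value on all arrays. Probes well above background on at least 4 of 12 arrays (27706) were each tested with limma 3.58.1 in R 4.3.3, with Benjamini-Hochberg adjustment across all tested probes and a threshold of 0.05. The 24 h fit has 9 residual degrees of freedom, and the fit of 6 times, which also gave the 6 two-sided comparisons, has 6. Amplitudes carry delta-method SE. Each array left out, other backgrounds, scalings, filters and probe choices, replicate number, slide and the mean of Upk1a, Upk1b, Upk2 and Upk3a were alternatives. The fits were tested on simulated data. Python 3.11.15 with pandas 2.3.3 made the other tables.

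Groups and replicate numbers came from the labels. The members and gene lists were chosen with earlier results of these data known. Named genes were all members, the 3 genes most like each, and per list the 2 with the smallest 24 h p; of some lists only the lowest adjusted p is printed, and genes set beside Krt14 and Krt15 by correlation were chosen after their values were seen.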

Additional observations from a re-analysis of the deposited data

How the results depend on the processing

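The count of member probes past the threshold stayed at 0 in all 8 tests under every alternative that was run: 23 for the 24 h test, 21 for any difference and 20 for each comparison of times. With each array left out it was 0 to 0. The background moved: over all probes the 24 h test called 81 to 214 with an array left out and 3 to 360 under the other alternatives, against 235, and CT16 against CT4 called 0 to 516 and 60 to 1067, against 348. With an array left out, CT4 against CT0 called 0 to 307 of all probes, against 0, CT12 against CT0 called 9 to 202, against 42, and the test for any difference 4 to 92, against 26. With slide as a fixed block the 24 h test called 3 probes, and with slide as a random block (correlation within slides 0.131) 53. A random slide block was not run for the 6 times and their comparisons, because slide is already encoded in the times. With replicate number as a block, the paired analysis called 0 member probes in each test. The lowest adjusted p of any member under it was 0.0934 in limma (Krt15, CT16 against CT4). Deviations of same-numbered arrays correlated at -0.18 to 0.38, above 0.1 in 10 of 15 pairs. These values do not show same-numbered arrays to be unrelated, and the main tests left the arrays unpaired. Whether the numbers mark a shared batch was not tested. Uncalled differences turned sign in 4 of 237 values for CT12 against CT0, 20 for CT16 against CT4, 14 for CT20 against CT8, 10 for CT4 against CT0, 8 for CT12 against CT8 and 10 for CT20 against CT16. Median scaling moved arrays against each other by up to 0.167 (log2). At CT12 against CT8 the members' median was -0.33 with it, -0.23 with quantile normalization and -0.17 in the authors' table.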

Other observations

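The 5 probes of Krt5, Krt18, Krt8 (both) and the first of Trp63 were higher in the second than in the first array at 6 of 6 times, 41.7% of the 12 tested members, where 3.85% of all tested probes were. The numbers come from the sample titles, and these 5 probes vary together, so they are not independent. With replicate number as a block, 6 of 12 members had an unadjusted limma p under 0.05 at CT12 against CT8, against 15.4% of all probes. The count was 6 for any difference (22% of all probes), 4 for CT12 against CT0 (11.9%) and 3 for the 24 h test (17.2%). It was 3 for CT16 against CT4 (23.8%) and for CT20 against CT16 (16.1%). For CT20 against CT8 (14.6%) and CT4 against CT0 (10.9%) it was 1. None passed after adjustment in limma.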
